A study of Saccharomyces cerevisiae with 12 samples.

Results

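The 46 genes described here act in meiosis and spore formation in the budding yeast Saccharomyces cerevisiae. They were chosen by systematic name, as genes of meiotic recombination, meiotic regulation and spore formation that are mostly silent in growing haploid cells. The rule itself uses no measured value, but it was written with earlier results of these data known. All 46 of them were among the 6650 genes measured, and all 46 passed the filter on low coverage. Chromatin bound by RNA polymerase II (Pol II) was precipitated with the mouse monoclonal antibody 4H8 against the polymerase's C-terminal domain (CTD) and sequenced in 6 libraries, and 6 input libraries held DNA of the same cultures that was not precipitated. There were 2 biological replicates of each of 3 strains. All cultures were fixed with 1.035% formaldehyde for 15 min.

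All strains were w303 cells of mating type MAT alpha grown with glucose to an OD600 of 0.5, with the alleles ura3-1, trp1-delta, ade2-1 and his3-11,15, and with the leu2 allele that joins mutations 3 and 112, the second of which the labels of the Pcf11-DNL samples give as 12. In every strain, the control included, the chromosomal PCF11 was replaced by TRP1 (pcf11-delta::TRP1) and a copy was supplied on a pRS325 plasmid with LEU2. The Pcf11 protein belongs to cleavage factor IA, which is needed for the cutting of nascent mRNA at its 3' end, and it also takes part in ending transcription. The plasmid carried V5-PCF11-MYC in WT, pcf11-13 in Pcf11-13, and V5-pcf11-deltaN-linkMYC in Pcf11-DNL, which the series text calls Pcf11-dQN. The V5 and MYC tags are thus named for WT and Pcf11-DNL and not for Pcf11-13, and the wild-type control is itself a plasmid strain.

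Meiosis is the pair of divisions by which a diploid yeast cell, starved of nitrogen and of a fermentable carbon source, makes haploid spores. The transcription factor Ime1 switches on the early genes, whose products break and recombine the chromosomes, and Ndt80 then switches on the middle genes for the divisions and for the membranes that enclose the spores. The late genes build the spore wall. A haploid cell growing in glucose does not enter this programme: repressors such as Ume6 and Sum1 keep most of these genes off, and IME1 is held down by Rme1.

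The WT cells had the marker pattern of their labelled mating type. Pol II over input was above the median gene over all 4 alpha-cell markers in WT, with a median of 4.59-fold. Of these, 3 were called higher, against 41.9% of all genes, and SAG1 was not (1.22-fold, limma adjusted p = 0.091). All 7 a-cell markers were called lower, against 43.0% of all genes, with a median of 0.352-fold. In Pcf11-13, Pol II over PCF11 itself rose by 2.31 on the log2 scale (SE 0.10, adjusted p = 2.1e-05) and its input by 0.56 (adjusted p = 0.00023). In Pcf11-DNL the Pol II change over PCF11 was -0.03 (SE 0.10). Mean Pol II coverage per gene was between 140 and 301 in the 6 libraries, and mean input coverage between 132 and 189. In WT replicate 1 and Pcf11-DNL replicate 2, log2 Pol II coverage varied less over all genes (SD 0.93 and 0.92) than in the other 4 libraries (1.08 to 1.19).

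In growing WT cells Pol II was sparse over nearly all of these genes. Levels are given as Pol II over input relative to the median gene of all genes, so that the median gene is at 1, and called means a Benjamini-Hochberg adjusted p under 0.05 over all genes in a limma fit. Of the 46 genes, 43 were called lower than the median gene in WT, against 43.0% of all 6644 genes tested, and 1, IME4, was called higher, against 41.9%. RED1 and SPO16 were not called. The median of the 46 was 0.395-fold (log2 -1.34). In the single libraries between 30 and 33 of the 46 lay in the lowest 10% of all genes by Pol II over input. Input gave no such difference: the median input coverage of the 46 genes was 94.4% to 96.5% of that of the median gene in the 6 input libraries. The measurement is over a whole culture, so fewer cells with Pol II on a gene and less Pol II per cell cannot be told apart. How much of the coverage of the lowest genes is library background was not tested.

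**Figure D1:**
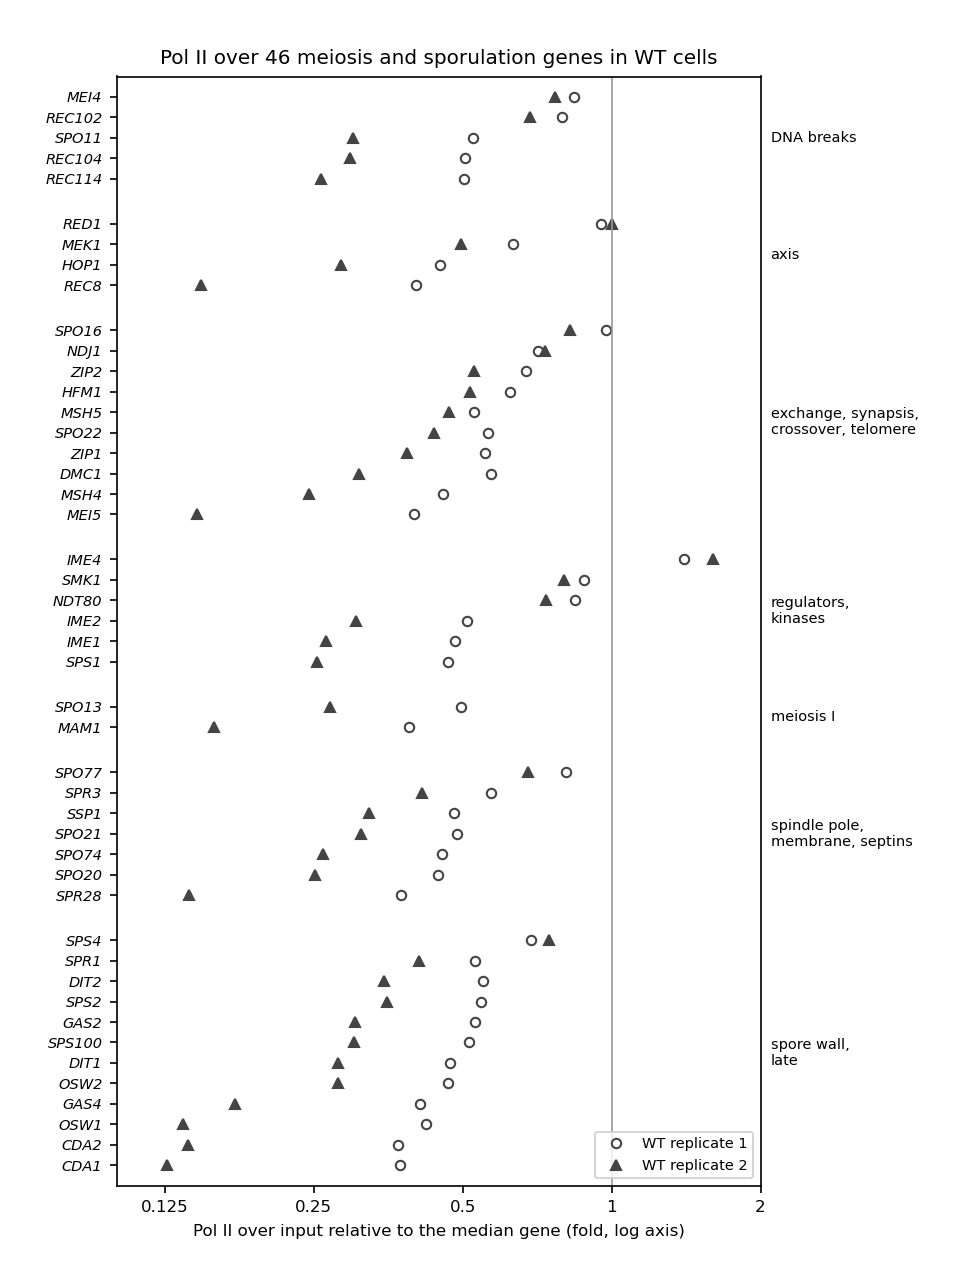
Pol II over input in WT for each of the 46 genes, grouped by role, as a fold of the median gene on a log axis; open circles are replicate 1 and filled triangles replicate 2. IME4 lies to the right of the line at 1 in both replicates, and the lowest genes, CDA1 and CDA2, lie at 0.373 and 0.370 in replicate 1 and at 0.126 and 0.139 in replicate 2.

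The genes for making meiotic DNA breaks were all 5 called lower in WT, against 43.0% of all genes, with a median of 0.397-fold. SPO11 (YHL022C) encodes the enzyme that cuts the DNA, and its Pol II coverage, scaled between libraries, was 63.1 and 37.7 (WT), 43.1 and 41.3 (Pcf11-13) and 46.9 and 58.1 (Pcf11-DNL), against an input of 147 to 158. REC104 (YHR157W), REC114 (YMR133W), REC102 (YLR329W) and MEI4 (YER044C-A) encode partners that Spo11 needs to cut. REC104 and REC114 had WT levels of 0.387-fold and 0.361-fold, and REC102 one of 0.737-fold, although its value fitted a stretch of 174 bases and so covers part of the gene only. MEI4 was the highest of these genes, with 0.803-fold (adjusted p = 0.00037).

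Among the genes of the chromosome axis, RED1 (YLR263W) stood at the level of the median gene. RED1 encodes a structural protein of the axis on which meiotic recombination takes place. Its scaled Pol II coverage was 106 and 112 (WT), 101 and 109 (Pcf11-13) and 108 and 104 (Pcf11-DNL), which gave 0.976-fold in WT (adjusted p = 0.53). These 6 values overlapped between the genotypes. The gene downstream on the same strand, 307 bp away, was RPS28B, a ribosomal protein gene at 6.03-fold. TMA7, upstream on the other strand, was at 2.06-fold. HOP1 (YIL072W), another axis protein gene, was at 0.357-fold, and MEK1 (YOR351C), for the kinase that acts on the axis, at 0.561-fold. REC8 (YPR007C), for the meiotic subunit of the cohesin ring that holds sister chromatids, had 48.1 and 17.4 (WT), 23.0 and 22.9 (Pcf11-13) and 28.1 and 47.4 (Pcf11-DNL). Its WT level of 0.244-fold was among the 6 lowest.

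Of the 10 genes for strand exchange, pairing and crossing over, 9 were called lower in WT, against 43.0% of all genes. Their median was 0.496-fold. DMC1 (YER179W) encodes the meiotic recombinase and MEI5 (YPL121C) a protein that helps it onto DNA. DMC1 was at 0.419-fold, from a value that fitted a stretch of 66 bases. MEI5 was lower, at 0.240-fold, with a scaled coverage of 44.0 and 14.9 (WT), 17.8 and 21.8 (Pcf11-13) and 25.5 and 45.4 (Pcf11-DNL). The zipper gene ZIP1 (YDR285W), whose product joins the paired axes, was at 0.462-fold. The genes for proteins that mark crossover sites were at 0.595-fold for ZIP2 (YGL249W), 0.495-fold for SPO22 (YIL073C) and 0.895-fold for SPO16 (YHR153C), and the crossover helicase gene HFM1 (YGL251C) at 0.567-fold. MSH4 (YFL003C) and MSH5 (YDL154W), whose products form a clamp on recombination intermediates, were at 0.335-fold and 0.497-fold. NDJ1 (YOL104C), for a protein that tethers chromosome ends to the nuclear envelope in meiosis, was at 0.721-fold.

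SPO16 was, with RED1, the other gene not called in WT. Its scaled coverage was 108 and 83.9 (WT), 94.1 and 115 (Pcf11-13) and 109 and 115 (Pcf11-DNL), and the Pcf11-DNL libraries lay above both WT libraries. The neighbouring SPO12, which runs towards SPO16 and ends 130 bp from it, was at 1.81-fold. RTT107, on the other side, was at 0.74-fold.

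The regulators and kinases ranged from 0.344-fold to 1.49-fold in WT. IME1 (YJR094C), the master activator, had 59.0 and 33.0 (WT), 34.8 and 35.7 (Pcf11-13) and 41.0 and 55.7 (Pcf11-DNL), a WT level of 0.358-fold (log2 -1.48, SD 0.61, adjusted p = 0.00025). An annotated noncoding RNA, IRT1, lies 284 bp upstream on the same strand. IME2 (YJL106W), for the kinase that Ime1 induces, had 59.9 and 35.5, then 36.4 and 37.7, then 42.1 and 58.5 in the same order of strains, a WT level of 0.393-fold. In both genes WT replicate 1 and Pcf11-DNL replicate 2 were the highest of the 6 libraries.

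IME4 (YGL192W), for the enzyme that methylates adenosines in meiotic mRNA, was the gene with the most Pol II. Its scaled coverage was 163 and 186 (WT), 165 and 168 (Pcf11-13) and 166 and 162 (Pcf11-DNL), against an input of 138 to 146. In WT this was 1.49-fold (log2 0.58, SD 0.13, n = 2, adjusted p = 1.5e-05), and it was called higher in Pcf11-13 (1.37-fold, adjusted p = 5.7e-05) and in Pcf11-DNL (1.41-fold, adjusted p = 4.4e-05) as well. The annotated antisense RNA RME2 covers all 1803 bp of IME4 (chromosome VII, 142246 to 144048, RefSeq R64 assembly) on the other strand. In haploid cells this antisense transcript is known to be made and to keep IME4 from being read in full. The libraries do not separate strands, so Pol II on IME4 and Pol II on RME2 cannot be told apart. The protein genes flanking IME4, YGL193C and COX13, were at 1.16-fold and 2.31-fold. Annotated antisense RNAs overlapped a pair of other genes of the group, RME3 along 1905 bp of ZIP2 and SUT169 along 946 bp of SPS100 (YHR139C), and those genes were at 0.595-fold and 0.393-fold.

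NDT80 (YHR124W) and SMK1 (YPR054W) were also among the 6 highest. NDT80, for the activator of the middle genes, had 101 and 89.1 (WT), 94.4 and 103 (Pcf11-13) and 96.7 and 102 (Pcf11-DNL), a WT level of 0.789-fold (adjusted p = 0.0013). A transfer RNA gene lies 33 bp from it. The protein genes on either side were lower than NDT80, EPT1 at 0.485-fold and YHR125W at 0.157-fold. SMK1, for the MAP kinase of spore wall assembly, had 104 and 97.7 (WT), 100 and 89.4 (Pcf11-13) and 96.0 and 101 (Pcf11-DNL), a WT level of 0.839-fold. YPR053C, which starts 36 bp from SMK1 on the other strand, was at 1.88-fold, and SEC8, downstream of SMK1, at 0.71-fold. SPS1 (YDR523C), for a kinase of spore formation, was lower, at 0.344-fold.

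The segregation genes and those for spore membranes were called lower in WT without exception, against 43.0% of all genes. SPO13 (YHR014W), which keeps sister chromatids together through the first division, was at 0.366-fold, and MAM1 (YER106W), for a subunit of monopolin at the kinetochore, at 0.247-fold. MAM1 had 43.1 and 16.5 (WT), 16.4 and 18.3 (Pcf11-13) and 28.4 and 43.1 (Pcf11-DNL). All 7 genes of the spindle pole body plaque, the prospore membrane and the septins were called lower, with a median of 0.389-fold. SPO21 (YOL091W) and SPO74 (YGL170C), for components of the meiotic spindle pole plaque, were at 0.389-fold and 0.345-fold, SPO20 (YMR017W), for a SNARE of prospore membrane fusion, at 0.335-fold, and SSP1 (YHR184W), for a coat protein at the membrane's leading edge, at 0.394-fold. SPO21 had 57.8 and 36.8 (WT), 46.7 and 50.8 (Pcf11-13) and 51.5 and 63.2 (Pcf11-DNL). SPO77 (YLR341W), which takes part in spore wall formation, was the highest of these genes, at 0.741-fold.

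Of the septin genes, SPR3 (YGR059W) lay above SPR28 (YDR218C) in all 6 libraries. SPR3 was at 0.486-fold, with 67.9 and 47.1 in WT, while SPR28 was at 0.230-fold, with 47.4 and 16.6 (WT), 16.3 and 17.8 (Pcf11-13) and 25.6 and 42.2 (Pcf11-DNL).

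All 12 genes of the spore wall and of late sporulation were called lower in WT, against 43.0% of all genes. Their median was 0.378-fold. CDA1 (YLR307W) and CDA2 (YLR308W), near neighbours with DPA10 (YLR307C-A) between them on the other strand, encode the chitin deacetylases that make the chitosan layer of the wall. They were the lowest of all 46, at 0.217-fold and 0.226-fold, and the part of library background in these values was not tested. CDA1 had 45.4 and 14.6 (WT), 14.3 and 15.4 (Pcf11-13) and 23.5 and 41.1 (Pcf11-DNL). CDA2 had 43.7 and 15.1, then 13.2 and 14.1, then 21.3 and 41.2. OSW1 (YOR255W), an outer spore wall gene, had 44.1 and 13.3 (WT), 12.7 and 14.4 (Pcf11-13) and 21.0 and 37.3 (Pcf11-DNL), a WT level of 0.239-fold. In these 3 genes WT replicate 1 and Pcf11-DNL replicate 2 gave 37.3 to 45.4, and the other libraries gave 12.7 to 23.5.

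DIT1 (YDR403W) and DIT2 (YDR402C), divergent neighbours 898 bp apart, encode the enzymes that make dityrosine for the outermost wall layer. DIT1 had 51.5 and 31.0 (WT), 32.5 and 30.8 (Pcf11-13) and 38.5 and 51.4 (Pcf11-DNL), and DIT2 had 58.2 and 37.0, then 54.8 and 53.2, then 45.0 and 58.9. Their WT levels were 0.364-fold and 0.437-fold. OSW2 (YLR054C), a further wall gene, was at 0.361-fold, the wall glucan genes GAS2 (YLR343W) and GAS4 (YOL132W) at 0.400-fold and 0.266-fold, SPR1 (YOR190W), for a glucanase of sporulating cells, at 0.464-fold, and SPS100, for a protein of spore wall maturation, at 0.393-fold.

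SPS2 (YDR522C) and SPS4 (YOR313C) are sporulation-specific genes, SPS2 for a wall protein and SPS4 for a protein of the middle and late stages. SPS2, 262 bp downstream of SPS1 on the same strand, was at 0.437-fold, with 58.5 and 35.9 (WT), 38.4 and 41.1 (Pcf11-13) and 42.5 and 56.6 (Pcf11-DNL). SPS1 had 49.4 and 26.8, then 28.7 and 32.0, then 32.3 and 49.9. SPS4 was the highest of the wall and late genes, at 0.717-fold. Another adjacent pair, HOP1 and SPO22, diverges from a gap of 647 bp. HOP1 had 49.2 and 29.7 (WT), 34.4 and 35.7 (Pcf11-13) and 37.3 and 47.6 (Pcf11-DNL), and SPO22 had 67.7 and 53.2, then 51.3 and 55.5, then 59.0 and 65.6.

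The order of the genes by level was alike in the libraries while the spacing was not. Across the 46 genes, Pearson's r of log2 Pol II over input lay between 0.923 and 0.992 for the pairs of libraries, and Spearman's rho between 0.916 and 0.984. The points are genes measured in the same libraries, so the correlations are a description. The SD of log2 Pol II over input among the 46 genes was 0.42 and 0.86 (WT), 0.86 and 0.87 (Pcf11-13) and 0.70 and 0.48 (Pcf11-DNL), for replicates 1 and 2.

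The coverage of these low genes differed between the libraries. The median coverage of the 46 genes was 48.4% (WT replicate 1) and 29.0% (WT replicate 2) of that of the median gene, 30.7% and 31.8% for the Pcf11-13 libraries, and 34.7% and 46.2% for the Pcf11-DNL libraries. For the 8 genes lowest in the mean of the libraries, CDA2, OSW1, CDA1, SPR28, MAM1, MEI5, REC8 and GAS4, the mean was 37.2% and 13.0% (WT), 13.6% and 14.5% (Pcf11-13) and 20.4% and 35.0% (Pcf11-DNL). The WT replicates were thus farther apart than the Pcf11-13 replicates were from WT replicate 2. WT replicate 1 and Pcf11-DNL replicate 2 both lay above the other 4 libraries for 38 of the 46 genes (82.6%), against 28.2% of all genes. The part that this spread between libraries has in the changes of single low genes was not tested.

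**Figure D2:**
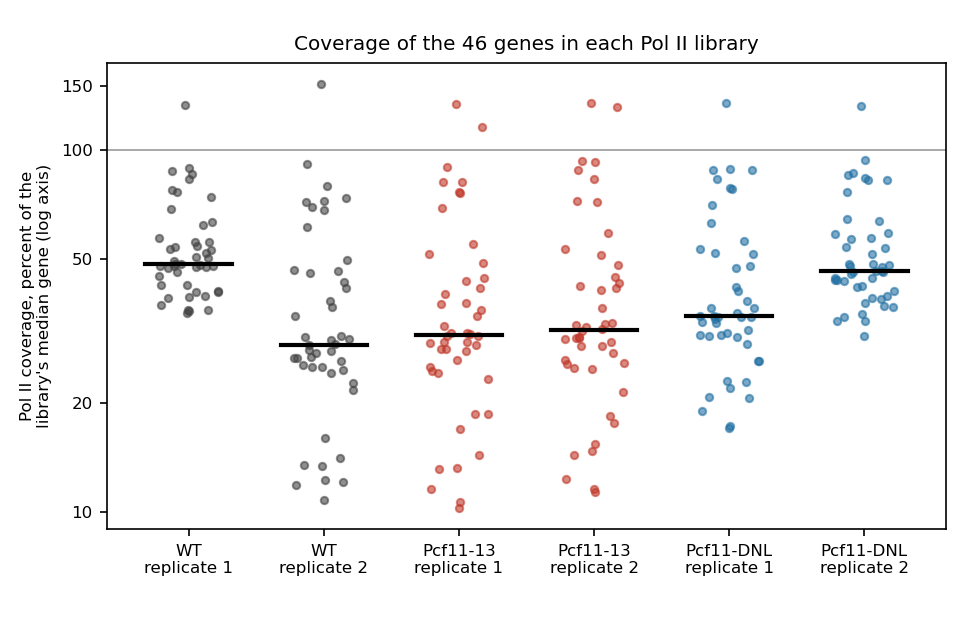
Deposited Pol II coverage of each of the 46 genes as a percent of the median gene of its library, on a log axis; points are genes and black bars their medians. WT replicate 1 and Pcf11-DNL replicate 2 have the highest medians (48.4% and 46.2%) and no gene below 30.4%, while the lowest gene of WT replicate 2 and of both Pcf11-13 libraries lies between 10.2% and 11.3%.

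The levels in the mutants were of the same kind. In Pcf11-13, 41 of the 46 genes were called lower than the median gene, against 43.8% of all genes, and IME4 and NDJ1 were called higher, against 42.7%, with a median of 0.337-fold (log2 -1.57). In Pcf11-DNL, 42 were called lower, against 42.6%, and IME4 higher, against 41.8%, with a median of 0.432-fold (log2 -1.21). RED1, SPO16 and MEI4 were called in neither direction in Pcf11-13 or in Pcf11-DNL.

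The comparison of Pcf11-13 with WT asked where Pol II over genes differed with the pcf11-13 allele. SPS4 fell and NDJ1 rose, and the other 44 genes were not called. That is 2 of 46 genes, against 1.14% of all 6642 genes tested (0.151% lower and 0.994% higher). An unadjusted p under 0.05 was found for 3 of the 46, against 839 of the 6642. The changes lay between -1.22 and 0.75 on the log2 scale with a median of -0.24, against -0.02 over all genes, and 36 of the 46 were below 0, against 54.0% of all genes.

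SPS4 had a scaled Pol II coverage of 83.5 and 88.1 (WT), 34.8 and 37.5 (Pcf11-13) and 77.4 and 78.7 (Pcf11-DNL). Both Pcf11-13 libraries lay below the other 4 with no overlap, and the Pcf11-DNL libraries lay slightly below both WT libraries. The change in Pcf11-13 was -1.22 on the log2 scale (SE 0.10, adjusted p = 0.0011), 2.34-fold lower, and Pol II over input fell from 0.717-fold to 0.311-fold of the median gene. Input over SPS4 was 148 and 142 in WT and 141 and 140 in Pcf11-13, a change of -0.04 that was not called (adjusted p = 0.93). The gene lies on the Crick strand (chromosome XV, 901858 to 902874 in the RefSeq R64 assembly). SPS4 was no higher in WT replicate 1 than in replicate 2, and in Pcf11-13 it came down to the level of such genes as SPS2 and IME1. The part that the spread between libraries has in the change of SPS4 was not tested.

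The neighbours of SPS4 did not share its call. YOR314W, an open reading frame that starts 168 bp away on the other strand, had 66.2 and 91.1 in WT and 45.3 and 38.8 in Pcf11-13, a change of -0.88 (SE 0.17, adjusted p = 0.0532). Its Pcf11-13 libraries both lay below its WT libraries. RPL20B, a ribosomal protein gene 663 bp downstream on the same strand, was at 7.56-fold in WT and changed by -0.09 (SE 0.21, adjusted p = 0.903).

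NDJ1 had 90.4 and 90.4 (WT), 143 and 163 (Pcf11-13) and 108 and 101 (Pcf11-DNL). Both Pcf11-13 libraries lay above all others, and the Pcf11-DNL libraries lay between the groups. The change in Pcf11-13 was 0.75 (SE 0.08, adjusted p = 0.0044), 1.68-fold higher, and took NDJ1 from 0.721-fold to 1.22-fold of the median gene. Its input changed by -0.02 (adjusted p = 1). The gene is also on the Crick strand (chromosome XV, 116396 to 117454). The call was lost without Pcf11-13 replicate 2 (0.66, adjusted p = 0.062), the higher of the pair, and without the mean-variance trend (adjusted p = 0.093).

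Upstream of NDJ1, 545 bp away on the other strand, lies YOL103W-B. It had 218 and 269 in WT and 347 and 349 in Pcf11-13, a change of 0.52 (SE 0.12, adjusted p = 0.0878) that was not called. Its input was 210 to 217, above the 143 to 155 of NDJ1. Whether all reads counted for YOL103W-B come from this site was not tested. WSC3, a cell wall stress sensor gene 587 bp downstream on the same strand, changed by 0.10 (SE 0.08, adjusted p = 0.653).

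MEI4 (chromosome V, 238460 to 239774, Crick strand) lay just outside the threshold. It had 93.4 and 85.8 (WT), 111 and 116 (Pcf11-13) and 102 and 105 (Pcf11-DNL), so both mutants lay above both WT libraries. The change in Pcf11-13 was 0.33 (SE 0.07, adjusted p = 0.081), and relative to input it was 0.26 (SE 0.07, adjusted p = 0.16). Under 18 alternative settings the Pol II change was 0.27 to 0.41, and it was called under 7 of them. In each of these 7 more of all genes were called as well, such as 4.05% under quantile normalization, against 1.14% as reported. The change was 0.40 without WT replicate 1 and 0.27 without WT replicate 2. Both flanking genes run on the same strand as MEI4 and both were called higher in Pcf11-13. ACA1, a transcription factor gene 257 bp upstream, had 117 and 97.6 in WT and 152 and 174 in Pcf11-13, a rise of 0.60 (SE 0.11, adjusted p = 0.0426). ERG28, an ergosterol synthesis gene 443 bp downstream, had 172 and 212 in WT and 283 and 285 in Pcf11-13, a rise of 0.57 (SE 0.11, adjusted p = 0.0499).

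**Figure D3:**
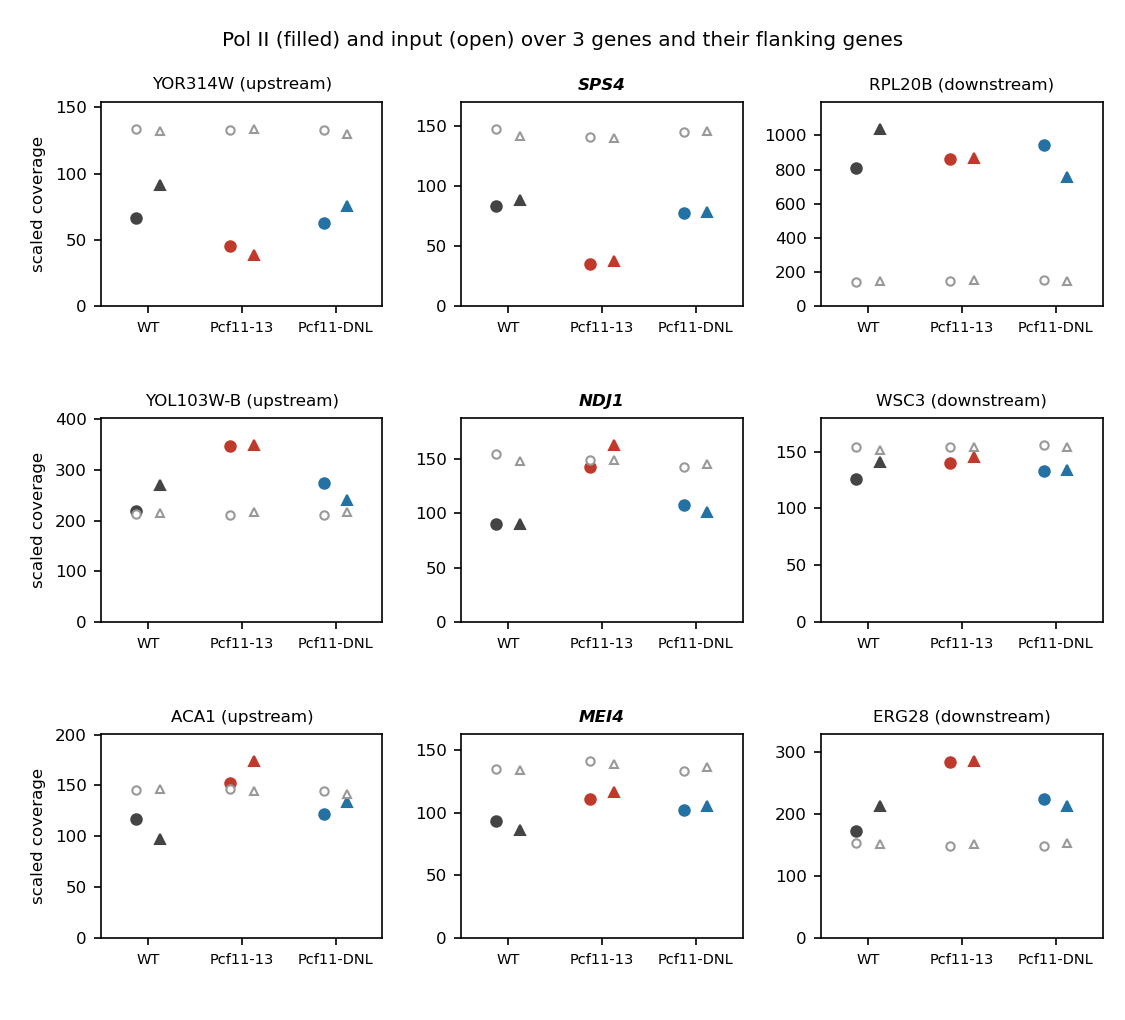
Scaled coverage of Pol II (filled) and input (open grey) over SPS4, NDJ1 and MEI4 and the gene on either side; circles are replicate 1 and triangles replicate 2, each axis starts at 0 and the axes differ in range. Pol II over SPS4 is 34.8 and 37.5 in Pcf11-13 against 77.4 to 88.1 in the other strains, and over NDJ1 it is 143 and 163 against 90.4 to 108, while input stays level.

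Across all 46 genes, the change of a gene in Pcf11-13 and the mean change of its flanking genes had Pearson's r = 0.48 and Spearman's rho = 0.32. The WT level and the level of the higher flanking gene had r = 0.36 and rho = 0.34. Both are descriptions over 46 genes that share libraries. The 20 genes whose upstream neighbour runs on the same strand had a median change of -0.20 in Pcf11-13, with 6 above 0, and the 26 with an upstream neighbour on the other strand had -0.28, with 4 above 0.

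The largest changes that were not called were those of the lowest genes. CDA2, OSW1, CDA1 and SPR28 had log2 changes of -0.87 (SE 0.90), -0.81 (SE 0.99), -0.77 (SE 0.83) and -0.69 (SE 0.69) in Pcf11-13, and none was called. For OSW1, CDA1 and SPR28, WT replicate 2 lay between the Pcf11-13 libraries and WT replicate 1 above them, and for CDA2 both WT libraries lay above. In all, 9 of the 46 genes had both Pcf11-13 libraries below both WT libraries, against 20.5% of all genes: REC104, MEK1, SPS4, SPO74, SPR1, SSP1, MSH4, MSH5 and CDA2. MEI4 and NDJ1 had both above, against 19.6% of all genes.

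The direction of the median in this comparison rested on the WT replicate used. Without WT replicate 1 the median change of the 46 genes was 0.12 and 5 were called, against 6.51% of all genes. Without WT replicate 2 the median was -0.57 and 16 were called, 14 of them lower, against 18.3% of all genes. SPS4 and NDJ1 were called in both, SPS4 with -1.26 and -1.19 and NDJ1 with 0.75 and 0.75. Without both libraries of narrow range the median was 0.13 and 6 genes were called, against 9.49% of all genes: SPS4 lower, and NDJ1, MEI4, DIT2, ZIP2 and SPO21 higher. The calls over all genes thus rose in each of these fits too, from the 1.14% of the full comparison.

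**Figure D4:**
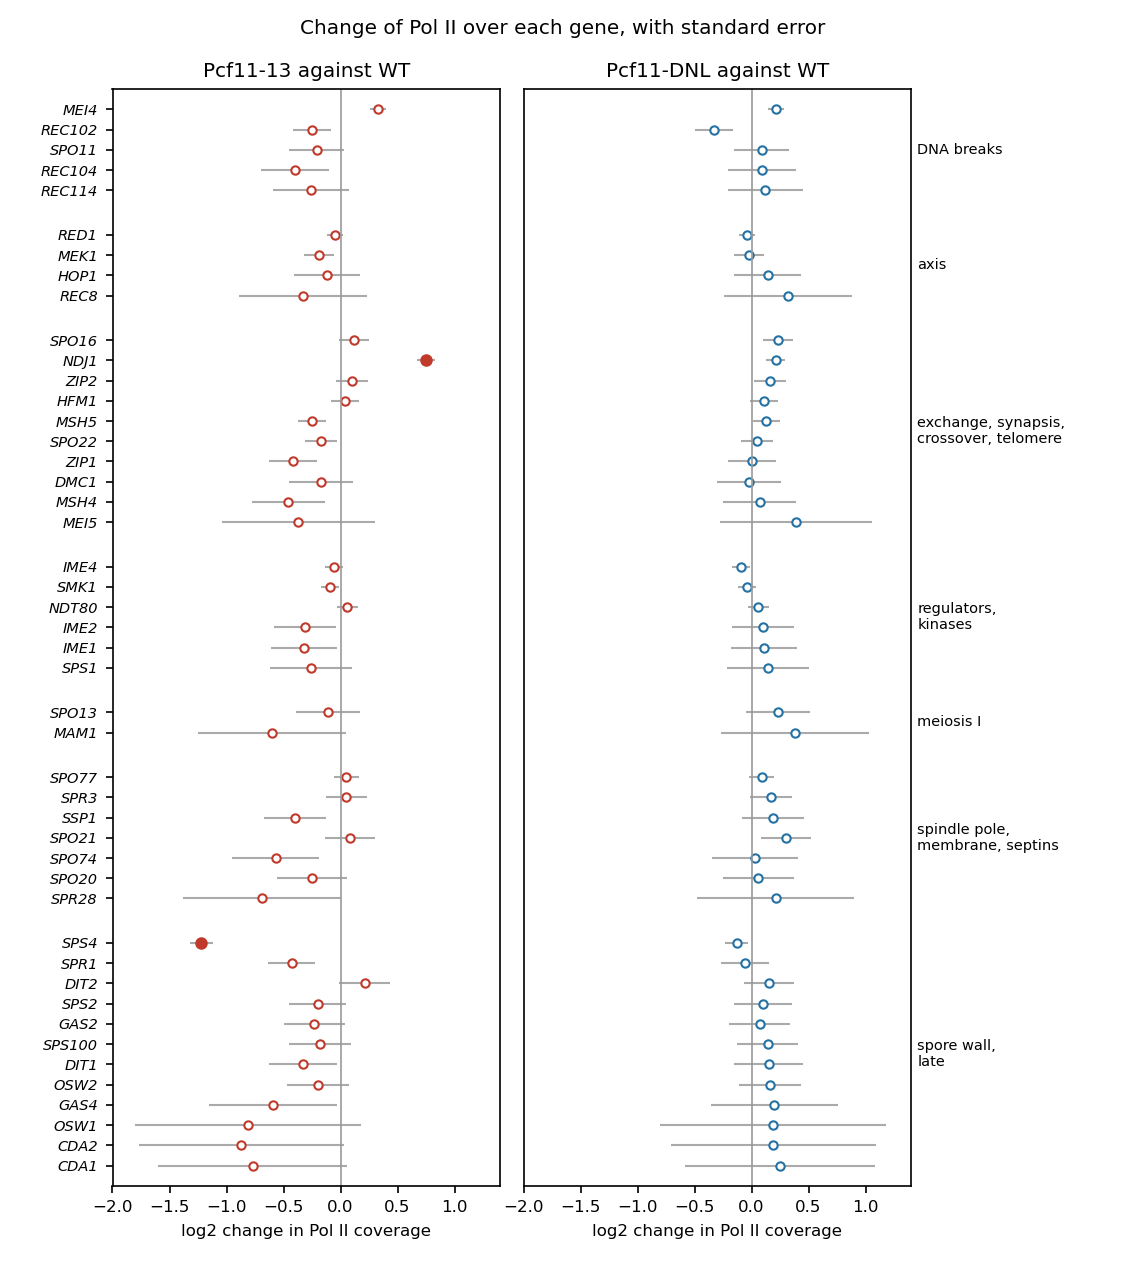
Log2 change in Pol II coverage of each gene against WT in Pcf11-13 (left) and Pcf11-DNL (right), with the standard error as a bar; filled points have an adjusted p under 0.05. Only SPS4 (-1.22) and NDJ1 (0.75) are filled on the left and no gene is on the right, and the bars are widest for the lowest genes, such as OSW1 with 0.99.

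In Pcf11-DNL no gene of the 46 passed the test against WT. None was called, against 0.0151% of all genes. MEI4 and NDJ1 had an unadjusted p under 0.05, against 107 of all 6642 genes tested. MEI4 changed by 0.21 (SE 0.07, adjusted p = 1) and NDJ1 by 0.21 (SE 0.08, adjusted p = 1). The changes ran from -0.33 for REC102 to 0.39 for MEI5, with a median of 0.12 against 0.00 over all genes, and 37 of the 46 were above 0, against 49.7% of all genes. REC102 had 64.2 and 51.1 (WT), 44.7 and 51.5 (Pcf11-13) and 42.5 and 48.2 (Pcf11-DNL). Its input also lay lower in Pcf11-DNL than in WT, at 86.8 and 78.9 against 98.3 and 90.4. Groups did not overlap for 5 genes: MEI4, NDJ1 and SPO16 were above, against 9.09% of all genes, and REC102 and SPS4 below, against 7.60%.

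The other large differences in Pcf11-DNL were in low genes, MEI5 with 0.39 (SE 0.67), MAM1 with 0.38 (SE 0.65), REC8 with 0.32 (SE 0.56) and CDA1 with 0.25 (SE 0.83), and in SPO21 with 0.30 (SE 0.22). In all 5 the WT libraries and the Pcf11-DNL libraries overlapped. The median over the 46 genes was 0.46 without WT replicate 1, where 4 genes were called, ZIP2, SPR3, SPO16 and SPO21, all higher, against 6.04% of all genes. It was -0.25 without WT replicate 2, and -0.07 without Pcf11-DNL replicate 2, with no gene of the 46 called in either, against 0.422% and 0.0452% of all genes.

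Between the mutants, too, SPS4 differed. The spread in this comparison was estimated from all 6 Pol II libraries, those of WT included. SPS4 was higher in Pcf11-DNL than in Pcf11-13 by 1.09 on the log2 scale (SE 0.10, adjusted p = 0.0066), 2.13-fold, and was the 1 gene of 46 called, against 0.166% of all genes in either direction and 0.0602% higher. NDJ1 differed by -0.54 (SE 0.08, adjusted p = 0.064) and was called under 8 of 18 alternatives. The median was 0.33, against 0.00 over all genes, and 41 of the 46 were above 0, against 51.2% of all genes. The direction of this median was not stable: it was 0.04 under quantile normalization and turned to -0.11 with background subtracted, an alternative chosen after seeing the data. In that alternative a share of the input, set by the genes with the least Pol II over input, was taken off each Pol II library. The pseudocount was also raised there, from 1 to 5. Both Pcf11-DNL libraries lay above both Pcf11-13 libraries for 30 of the 46, against 29.1% of all genes, and below them for MEI4 and NDJ1, against 26.7%. After SPS4, the largest differences were 1.07 for CDA2, 1.02 for CDA1, 1.00 for OSW1, 0.97 for MAM1 and 0.91 for SPR28, with standard errors of 0.65 to 0.99. These are the genes with the least Pol II, and the median was 0.13 without Pcf11-DNL replicate 2. The call of SPS4 was lost under quantile normalization (0.85, adjusted p = 0.054) and with background subtracted (1.19, adjusted p = 0.12). It was also lost without Pcf11-13 replicate 1 (1.03) or replicate 2 (1.13). With the 2 mutants fitted alone, 3 genes were called, SPS4, NDJ1 (adjusted p = 1.3e-10) and MSH5 (adjusted p = 0.030), against 10.6% of all genes. The same 3 were called without WT replicate 1 and without WT replicate 2, against 10.1% and 10.2% of all genes.

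**Figure D5:**
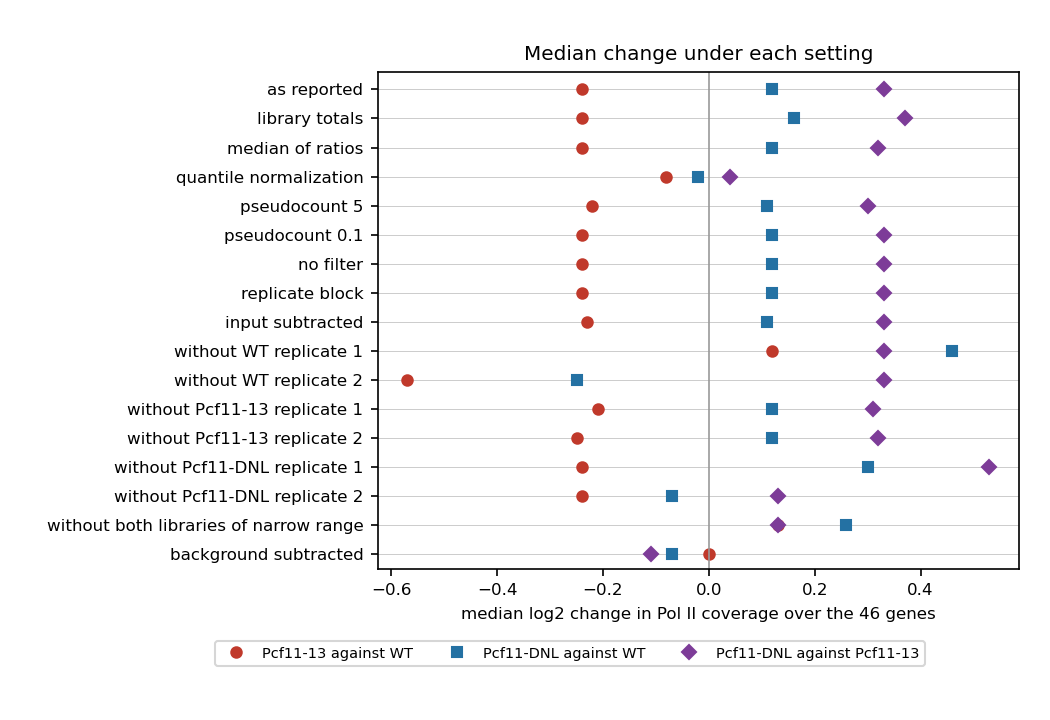
Median log2 change in Pol II coverage over the 46 genes for the 3 comparisons as reported and under 16 other settings. The median of Pcf11-13 against WT is -0.57 without WT replicate 2, 0.12 without WT replicate 1 and 0.13 without both libraries of narrow range, and under quantile normalization all 3 medians lie between -0.08 and 0.04; without both libraries of narrow range the circle is hidden behind the diamond.

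No difference of input DNA over these genes passed the test. None of the 46 was called in Pcf11-13 against WT, against 0.256% of all genes, in Pcf11-DNL against WT, against 0%, or in Pcf11-DNL against Pcf11-13, against 0.256%. An unadjusted p under 0.05 was found for 4, 5 and 1 of them, against 384, 232 and 379 of all 6643 genes tested. The median changes of the 46 were -0.01, 0.01 and 0.01. When the input change of each gene was taken off its Pol II change in 1 fit, SPS4 and NDJ1 remained called in Pcf11-13 against WT (-1.20 and 0.76), where 0.978% of all genes were called.

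Of 38 further meiosis and sporulation genes, 29 were called lower than the median gene in WT, against 43.0% of all genes, and 5 higher, against 41.9%, with a median of 0.497-fold. In Pcf11-13 against WT 1 of the 38 was called, against 1.14% of all genes: CRR1, a spore wall gene. It had 78.9 and 100 (WT), 44.1 and 42.3 (Pcf11-13) and 85.2 and 66.9 (Pcf11-DNL), a change of -1.03 (SE 0.15, adjusted p = 0.019). In Pcf11-DNL against WT none was called. The 5 with Pol II above the median gene in WT were MUM3 at 1.63-fold, MUM2 at 1.30-fold, MER1 at 1.23-fold, FKS3 at 1.22-fold and SPR6 at 1.17-fold, and of these Mum2 is a partner of Ime4 in the methylation of mRNA.

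The 11 genes for regulators that hold the programme silent in growing cells, such as UME6, SUM1, RME1 and the histone deacetylase gene RPD3, lay on both sides of the median gene in WT, from 0.662-fold for UME6 to 2.00-fold for HST1, with a median of 0.972-fold. Of these, 4 were called higher, against 41.9% of all genes, and 4 lower, against 43.0%. None of the 11 was called in Pcf11-13 or Pcf11-DNL against WT, where their changes lay between -0.21 and 0.11 and between -0.08 and 0.07. Of them 1 had an unadjusted p under 0.05 in the first comparison and none in the second, against 839 and 107 of all 6642 genes tested.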

How the data were processed

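The deposited values are mean read coverage per gene, a signal not scaled to depth, in 6 Pol II and 6 input libraries. Reads were 50 nt single-end per the labels. Of tools, the submitters' processing notes give deepTools 3.1.2, BWA 0.7.17-r1188 and Trimmomatic 0.38, with the build sacCer3, in no stated order. The averaging of coverage within a gene is not given in the sources used here, so the number of reads behind each value is unknown. The value of 2 of the 46 genes matched whole-number multiples of a short stretch (within 6e-04 per base), so it covers part of the gene.

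Coverage was divided by unweighted trimmed-mean (TMM) factors (trims of 30 and 5 percent), a pseudocount of 1 was added, and log2 values were fitted with limma 3.58.1 (R 4.3.3, mean-variance trend) over the 6 libraries of an assay, for genes that reached a coverage of 10 in 2 or more libraries. Fold changes are on that log2(value + 1) scale, which understates the change of low genes. Levels over input and changes relative to input came from 1 fit of all 12 libraries, each centred on its median gene. That fit took 1 spread per gene from Pol II and input libraries together, and did not pair the libraries of a culture. Its SE and adjusted p thus do not measure the spread between Pol II replicates alone. Benjamini-Hochberg adjustment ran over all genes, and the fits were tested on simulated data.

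The genes and the lists beside them were chosen with earlier results of these data known. Genes with values in every library were those called, the 6 largest changes per comparison, the 6 highest and 6 lowest in WT, IME1, IME2, IME4, NDT80 and pairs of neighbours; SPO11 was added after its values were seen. Neighbours and gene lengths came from the RefSeq table (R64), which matched all 46 genes, with strand read from the systematic name. Replicate numbers did not pair the strains (correlation of deviations -0.89 to -0.07 for Pol II). Promoter sequences were not used here.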

Additional observations from a re-analysis of the deposited data

Results flagged for a closer look

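Flagged by a test of the difference between strains in Pol II relative to input were SPS4 and NDJ1. SPS4 was lower in Pcf11-13 than in WT by a log2 difference of -1.20 (SE 0.07, adjusted p = 9.6e-05, limma), and lower in both Pcf11-13 libraries than in both WT libraries. The spread in this test was pooled over Pol II and input libraries. For Pol II alone the change was -1.22 (SE 0.10, adjusted p = 0.0011, limma). SPS4 was higher in Pcf11-DNL than in Pcf11-13 by 1.06 (SE 0.07, adjusted p = 0.00071), again in 2 of 2 libraries. NDJ1 was higher in Pcf11-13 than in WT by 0.76 (SE 0.09, adjusted p = 0.0059), in 2 of 2 libraries.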

How the results depend on the processing

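SPS4 fell in Pcf11-13 under all 18 alternatives run, with log2 changes of -1.42 to -1.01 and adjusted p up to 0.037. NDJ1 kept its sign in all 18 (0.66 to 0.96) and its call in 16. The number of the 46 genes called in Pcf11-13 against WT, 2 as reported, was 6 without both libraries of narrow range, 1 with no mean-variance trend and 1 to 16 when leaving out 1 library each; of all genes, 9.49%, 0.151% and 0.12% to 18.3% were called in these fits, against 1.14%. In Pcf11-DNL against WT it was 0 to 4 when leaving out 1 library (0% to 6.04% of all genes). In Pcf11-DNL against Pcf11-13, 1 as reported, it was 2 with library totals (1.79% of all genes), 2 with pseudocount 5 (0.196%), 2 with the replicate block (0.301%), 3 with the 2 genotypes compared only (10.6%), 3 without both libraries of narrow range (6.19%), 0 with quantile normalization (0.0753%), 0 with background subtracted (0.0301%), and 0 to 3 when leaving out 1 library (0.0151% to 10.2%), against 0.166%. With background subtracted and a pseudocount of 5, an alternative chosen after seeing the data, the median of that comparison was -0.11. The median log2 level over input in Pcf11-13 was -1.56 with TMM over the 12 libraries, -1.50 with pseudocount 5, -1.59 with pseudocount 0.1, and -1.60 to -1.59 when leaving out 1 library. No result reversed among those called. The other summary values, 206 in all, kept their direction and side of the threshold or moved by less than the replicate SD. The replicate block added NDJ1 in Pcf11-DNL against Pcf11-13 (adjusted p = 0.019) and left the called genes of the other comparisons at 2 and 0; the correlation of replicate deviations between strains was at most -0.07 for Pol II and 0.13 for input. With crossed numbers for WT and Pcf11-DNL (r = -0.89 for the same numbers), chosen after seeing the data, 33 genes of all and 0 of the 46 were called. Genes called over all genes in Pcf11-13 against WT ran from 8 to 1213 when leaving out 1 library, against 76. Leaving out 1 library leaves a strain with 1 sample, which is assumed to vary like the other strains. Without both libraries of narrow range, WT and Pcf11-DNL are assumed to vary like Pcf11-13. With 2 libraries per strain, changes of the lowest genes had standard errors up to 0.99.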
